A study of Homo sapiens with 26 samples.

Results

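Of 10740 genomic regions at which binding of the glucocorticoid receptor (GR) was measured, 404 (3.76%) had their midpoint within 1 kb of the start of a protein-coding gene. These promoter regions were chosen by position alone, with the gene's 5′ end taken by strand from the GENCODE 44 annotation of the human build hg38. They lay at 430 of 20020 protein-coding genes and were set against the other 10336 regions, which were farther from any such start. Chromatin immunoprecipitation with sequencing (ChIP-seq) of GR had been performed in A549, a long-established line of human lung carcinoma cells that resemble alveolar epithelium. The question was the part of NF-κB in where GR binds. All cells carried an adenovirus. It encoded either IκBαΔN (Ad-IκBαΔN), an inhibitor of NF-κB, or green fluorescent protein (Ad-GFP), the control. In each virus the cells were given 1 ng/ml interleukin-1β together with 300 nM budesonide, a synthetic glucocorticoid (IL1B+Bud), budesonide alone (Bud) or nothing (NS), for 1 h. Each of the 6 groups had 2 libraries from 2 independent experiments, but the deposited table gives 1 value per region and group. Differences between groups thus stand without a replicate check, and neither a p-value nor an SD between libraries is given.

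GR is a ligand-activated transcription factor. Bound by a glucocorticoid, it enters the nucleus and binds DNA directly at glucocorticoid response elements (GREs), most of which lie far from promoters, or is brought to DNA through other factors. NF-κB dimers, built from RELA, RELB, REL and the products of NFKB1 and NFKB2, are held in the cytoplasm by IκB proteins until a signal such as interleukin-1β leads to IκB breakdown. They then bind κB motifs, many of them in the promoters of chemokine, adhesion molecule and feedback genes, and an IκBα that cannot be broken down keeps them inactive.

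Position, not signal, picked the promoter regions out of the authors' GR regions, and the motifs in them are set beside the signal. The part that the authors' own choice of regions had was not tested. Each sequence that carries the contrast is printed on the strand of its gene, 5′ to 3′, from hg38, with the motif match in capitals and 20 bases on either side. The first set shows κB matches in regions where GR signal was high with IL1B+Bud in Ad-GFP cells and low in the other 5 groups, at chemokine genes and at the members with the highest differences.
CXCL1, chr4:73869294-73869343, + strand: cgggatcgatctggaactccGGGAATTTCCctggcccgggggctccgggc
CXCL5, chr4:73998739-73998788, - strand: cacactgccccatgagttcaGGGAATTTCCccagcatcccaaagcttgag
CXCL10, chr4:76023645-76023694, - strand: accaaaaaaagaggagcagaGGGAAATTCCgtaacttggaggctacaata
NINJ1, chr9:93134690-93134739, - strand: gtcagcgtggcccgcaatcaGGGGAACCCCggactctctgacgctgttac
IFNGR2, chr21:33403294-33403343, + strand: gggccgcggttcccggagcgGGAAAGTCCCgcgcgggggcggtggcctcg
SLC9A8, chr20:49812601-49812650, + strand: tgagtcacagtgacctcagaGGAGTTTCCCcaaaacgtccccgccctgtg
STX11, chr6:144150182-144150231, + strand: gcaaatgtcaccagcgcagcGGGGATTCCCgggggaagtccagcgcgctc
CCNL1, chr3:157160829-157160878, - strand: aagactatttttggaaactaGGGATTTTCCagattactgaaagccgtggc
The second set shows GRE matches in regions where the signal was high with Bud alone in both viruses.
ZFAND5, chr9:72365815-72365869, - strand: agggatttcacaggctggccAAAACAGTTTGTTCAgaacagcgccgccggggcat
TPRG1, chr3:188948095-188948149, + strand: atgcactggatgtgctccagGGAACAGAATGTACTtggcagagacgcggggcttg
IL1R1, chr2:102064285-102064339, + strand: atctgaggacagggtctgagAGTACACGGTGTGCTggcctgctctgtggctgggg
The third set is a promoter region that held a match to each motif, at EBI3, which encodes a subunit of heterodimeric cytokines.
EBI3, κB, chr19:4229173-4229222, + strand: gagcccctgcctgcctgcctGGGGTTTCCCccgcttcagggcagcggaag
EBI3, GRE, chr19:4229213-4229267, + strand: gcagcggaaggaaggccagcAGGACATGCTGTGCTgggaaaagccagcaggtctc

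The promoter regions were 400 bases wide and centred near the gene start. The median distance of the midpoint from the nearest start was 295 bases, with 182 regions (45.0%) within 250 bases and 274 (67.8%) within 500 bases. The midpoint was upstream of the start in 258 regions (63.9%) and at or downstream of it in 146. By the annotation, 209 midpoints lay outside protein-coding genes, 120 in introns, 57 in exons outside the coding sequence of a coding transcript, 9 in other exons and 9 in coding exons. A single gene start was near 373 regions, and 31 regions had 2 starts within 1 kb, which lay on opposite strands in 20 of them. Of the named genes, BCL3, ICAM1, PLEKHG2 and MKKS had 2 promoter regions each, so these pairs share a gene. At the edge of the window, the regions at KLHDC7B, TIPARP and PLEKHG2 lay 995, 993 and 991 bases from the start and were counted, and those at FAM236B, FAM236A and GALNT18 lay 1003, 1004 and 1010 bases away and were not. Chromosome 19, which is rich in genes, held 7.67% of promoter regions, 2.37% of other regions and 7.36% of all protein-coding gene starts.

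Promoter regions differed in base composition from other GR regions. Their median GC content was 57.0%, against 44.2% in other regions and 62.2% in 400-base windows centred on 20009 protein-coding gene starts. The median ratio of observed to expected CpG dinucleotides was 0.551 in promoter regions and 0.198 in other regions, and it was 0.728 in gene start windows. By a common definition of CpG-rich sequence, a ratio of at least 0.6 and a GC content of at least 50%, 164 promoter regions (40.6%) and 204 other regions (1.97%) qualified, against 59.3% of gene start windows. The promoter regions thus lay between the other GR regions and the average gene start in all 3 measures.

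The κB motif was found at a higher share of promoter regions than of either other set, and the GRE at a share between theirs. Both strands were searched for 10-base matches to the NF-κB consensus, for the GRE, which is AGAACA, any 3 bases and TGTTCT, allowing up to 2 mismatches over its 12 fixed bases, and for 6 other motifs. A κB match was present in 161 promoter regions (39.9%, Wilson 95% confidence interval 35.2 to 44.7%), against 20.6% of other regions and 8.82% of gene start windows. A GRE match was present in 25 promoter regions (6.19%, 4.23 to 8.98%), against 15.0% of other regions and 1.34% of gene start windows. Both were found in 4 promoter regions, and the nearest match lay a median of 15 bases from the midpoint for κB and 11.5 bases for the GRE. The AP-1 motif (TGACTCA or TGAGTCA) was found in 17.8% of promoter regions, 22.9% of other regions and 4.93% of gene start windows. Of the elements typical of promoters, the GC box GGGCGG was in 44.1% of promoter regions and 9.78% of other regions, and the ETS word CCGGAA in 17.8% and 5.66%. The cAMP response element (TGAC followed by GTCA) was in 3.96% of promoter regions and 1.15% of other regions. CCAAT was in 35.9% of promoter regions and 41.9% of other regions, and TATAAA in 13.1% and 24.4%. Regions are not replicates and some neighbour each other, so these intervals describe this set of regions. A match is a word in the sequence, and whether a protein bound it was not measured here.

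**Figure D1:**
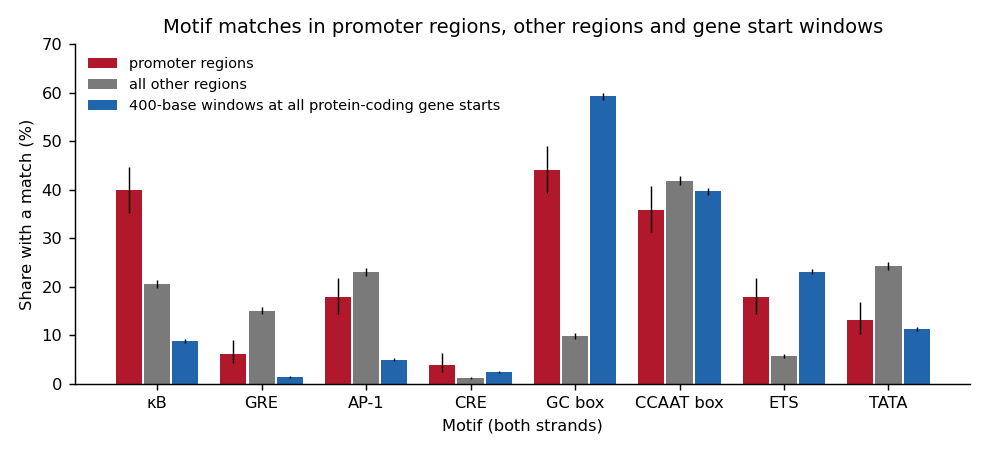
Share of regions or windows with a match to each motif on either strand, in percent; bars are promoter regions (n = 404), all other regions (n = 10336) and 400-base windows at protein-coding gene starts (n = 20009), and lines are Wilson 95% confidence intervals. The κB share was 39.9% in promoter regions, against 20.6% in other regions and 8.82% in gene start windows, and the GRE share 6.19%, against 15.0% and 1.34%.

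The authors had placed every region in 1 of 3 classes, and the sources used here do not give the basis of these. A larger share of promoter regions than of other regions was in the increasing class, and a smaller share in the decreasing class. Of the 404 regions, 213 (52.7%) were increasing, 143 (35.4%) unchanged and 48 (11.9%) decreasing, against 40.0%, 31.6% and 28.4% of other regions. A κB match was present in 54.9% of increasing, 25.9% of unchanged and 14.6% of decreasing promoter regions, against 39.6%, 11.2% and 4.33% of other regions in the same classes, so the shares fell in the same order outside promoters.

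GR signal at promoter regions was low without ligand, lower than at other regions with Bud, and higher than at other regions with IL1B+Bud in Ad-GFP cells. In Ad-GFP cells the median signal of promoter regions was 64.4 with IL1B+Bud, 13.4 with Bud and 8.95 untreated, and that of other regions was 45.0, 21.9 and 7.53. In Ad-IκBαΔN cells the promoter medians were 23.5 with IL1B+Bud, 15.9 with Bud and 7.84 untreated, and those of other regions 23.6, 21.8 and 7.79. Signal is the mean coverage per base recovered from the deposited log2 values, on a scale set by the authors. The number of promoter regions with a signal above 100 was 98 with IL1B+Bud, 16 with Bud and 0 untreated in Ad-GFP cells, and 13 with IL1B+Bud and 14 with Bud in Ad-IκBαΔN cells. These counts were not taken for other regions, which also passed 100. Their highest signals in the same groups were 1520, 1492 and 278 in Ad-GFP cells and 1150 and 1194 in Ad-IκBαΔN cells. Across the 404 regions, log2 signals of the 2 viruses had a Pearson r of 0.052 with IL1B+Bud, 0.97 with Bud and 0.29 untreated. Across other regions it was 0.18, 0.98 and 0.29, so low values were also found without IL1B and outside promoters. The 2 groups behind each value share the regions and their base composition, and the values describe this set.

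**Figure D2:**
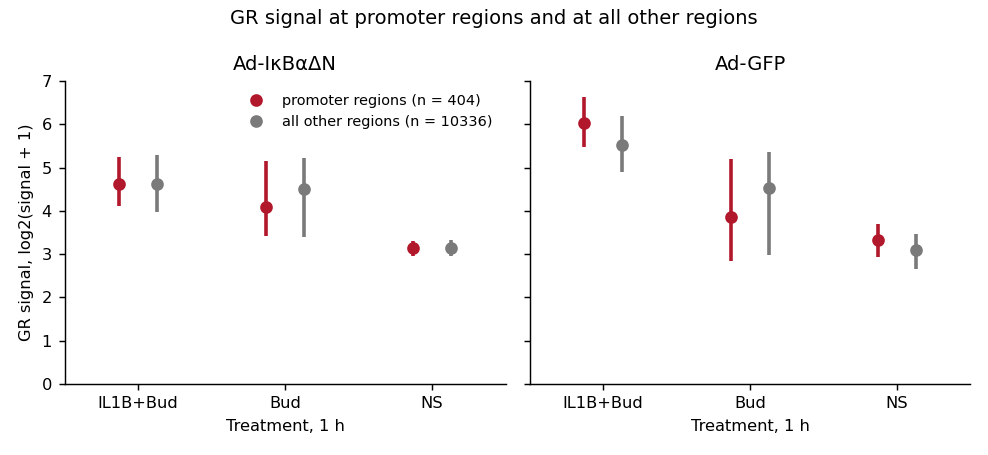
GR signal as log2(signal + 1) by virus and treatment at 1 h; points are medians over promoter regions (n = 404) and over all other regions (n = 10336), and lines run between the quartiles of the regions and are no error. Promoter medians were 6.03, 3.85 and 3.31 with IL1B+Bud, Bud and NS in Ad-GFP cells, and 4.62, 4.08 and 3.14 in Ad-IκBαΔN cells.

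With budesonide alone, GR signal was higher at a smaller share of promoter regions than of all other regions. Beside the nearest other region within 50 kb, this contrast was small for Ad-GFP and not seen for Ad-IκBαΔN, as given further below. A region is called higher or lower here when the log2(signal + 1) values differed by at least 1, a 2-fold difference, which understates differences at low signal. With Bud, 175 of 404 promoter regions (43.3%) were higher than untreated and 50 (12.4%) lower in Ad-GFP cells, where 57.9% of all 10740 regions were higher and 8.14% lower. In Ad-IκBαΔN cells 194 (48.0%) were higher and 2 lower, where 59.3% of all regions were higher and 1.06% lower. The untreated log2 signals of promoter regions spread less in Ad-IκBαΔN than in Ad-GFP cells (SD across regions 0.28 and 0.60). The part of this in the counts was not tested. The median log2 difference was 0.49 at promoter regions and 1.39 at other regions in Ad-GFP cells, and 0.91 and 1.38 in Ad-IκBαΔN cells. Bringing all groups to 1 common median, which shifts the median difference of all regions by -1.41 in Ad-GFP cells, left 62 promoter regions higher and 105 lower in Ad-IκBαΔN cells and 68 higher and 198 lower in Ad-GFP cells. Of all 10740 regions it left 2026 higher and 2923 lower in Ad-IκBαΔN cells, and 2614 higher and 3500 lower in Ad-GFP cells. Re-centring moves all regions of a group by the same amount, so it could not change the gap between promoter and other regions. With quantile normalization, which can change it, the promoter median minus that of other regions was -0.10 in Ad-IκBαΔN and -0.57 in Ad-GFP cells.

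The highest promoter signals with Bud stood at a few genes and were alike in the 2 viruses. NFKBIA, which encodes IκBα itself and is a target of both GR and NF-κB, had the highest Bud signal of all promoter regions in Ad-GFP cells. At its region, in transcribed noncoding sequence 724 bases from the annotated start (chr14:35403826-35404225), the signal was 535 with IL1B+Bud, 668 with Bud and 9.04 untreated in Ad-IκBαΔN cells. In Ad-GFP cells it was 614, 871 and 14.5, so both ligand-treated groups stood far above untreated cells in either virus, 66.7-fold and 56.3-fold with Bud as ratios of signal + 1. ZFAND5, which encodes a zinc finger protein linked to protein turnover by the proteasome, had 340, 384 and 6.04 in Ad-IκBαΔN cells and 351, 504 and 8.91 in Ad-GFP cells, in the same order of groups. Its region lay 618 bases upstream of the start and held the first GRE shown above. DECR1, which encodes a mitochondrial enzyme of fatty acid oxidation, had 643 with Bud in Ad-IκBαΔN cells and 507 in Ad-GFP cells, against 9.27 and 8.43 in untreated cells. The other genes among the 10 highest Bud differences in Ad-GFP cells were SLC19A2 (a thiamine transporter), CHML (an escort protein of Rab prenylation), RFESD, CAPN2 (a calpain protease), CCN5 (a matricellular protein), TPRG1 and KRT7 (a keratin of simple epithelia). Their log2 differences ran from 3.76 at KRT7 to 5.18 at SLC19A2, and from 3.62 to 4.48 in Ad-IκBαΔN cells.

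Genes on a list of glucocorticoid-induced genes had high promoter signal with Bud in both viruses. On the deposited scale their median difference with added IL1B was small. The list, chosen with earlier results of these data known, held 50 genes, of which 12 had a promoter region. All 12 regions were at least 2-fold higher with Bud than untreated in Ad-IκBαΔN and in Ad-GFP cells, with median log2 differences of 2.68 and 2.53. Of all regions, 59.3% and 57.9% were higher in these comparisons. At MT2A, a metallothionein, signal was 104 with IL1B+Bud, 103 with Bud and 7.93 untreated in Ad-IκBαΔN cells, and 71.1, 108 and 9.52 in Ad-GFP cells. At DUSP1, a phosphatase of MAP kinases, it was 74.5, 76.1 and 8.49 in Ad-IκBαΔN cells and 80.0, 83.4 and 15.6 in Ad-GFP cells. The 2 ligand-treated groups were thus close together at DUSP1 in both viruses and at MT2A in Ad-IκBαΔN cells. At MT2A in Ad-GFP cells IL1B+Bud lay below Bud. At both genes all ligand-treated groups stood well above untreated cells. FKBP5, a co-chaperone of GR, had 53.3, 24.4 and 9.65 in Ad-IκBαΔN cells and 91.9, 32.4 and 10.7 in Ad-GFP cells at a region 803 bases downstream of its start, so here IL1B+Bud was higher than Bud in both on the deposited scale, and dividing each group's signal by its step, the unit in which its deposited values move, turned the Ad-GFP difference to -0.078. With IL1B+Bud against Bud, 1 of the 12 regions was higher in Ad-IκBαΔN cells (median -0.04), and 3 were higher and 1 lower in Ad-GFP cells (median -0.27). Of all regions, 9.65% were higher in Ad-IκBαΔN cells, and 48.9% were higher and 6.07% lower in Ad-GFP cells. The 3 listed regions were at FKBP5, ARRDC2, an arrestin-domain gene, and BIRC3, which the NF-κB feedback list also holds. Division by the step turned ARRDC2 to -0.27. The scale of the groups bears on these counts. With Bud, 9 of 12 were higher and 0 lower in Ad-IκBαΔN cells and 7 higher and 0 lower in Ad-GFP cells after re-centring, and with IL1B+Bud against Bud in Ad-GFP cells re-centring gave 1 higher and 9 lower.

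Adding IL1B to Bud gave the largest contrast between promoter regions and other regions. In Ad-GFP cells, 269 of 404 promoter regions (66.6%) were at least 2-fold higher with IL1B+Bud than with Bud and 10 (2.48%) were lower, where 48.9% of all regions were higher and 6.07% lower. The median log2 difference was 2.50 at promoter regions and 0.87 at other regions. In Ad-IκBαΔN cells, 59 promoter regions (14.6%) were higher and 2 (0.495%) lower, where 9.65% of all regions stood higher and 0.94% lower. The medians were 0.50 and 0.26. Of the 269 regions higher in Ad-GFP cells, 55 (20.4%) were also higher in Ad-IκBαΔN cells, which is 93.2% of the 59. The difference was smaller in Ad-IκBαΔN than in Ad-GFP cells at 319 of 404 regions. Neither the overlap nor this count was taken over all regions, so neither can be read as particular to promoters. The table's Ad-GFP values came in larger steps with IL1B+Bud than with Bud. Dividing each group's signal by its step left promoter medians of -0.03 in Ad-IκBαΔN cells and 0.97 in Ad-GFP cells, beside -0.29 and -0.66 at other regions. The counts were then 5 higher and 17 lower in Ad-IκBαΔN cells and 196 higher and 112 lower in Ad-GFP cells. Over all regions they were 94 higher and 1078 lower in Ad-IκBαΔN cells, and 3253 higher and 4695 lower in Ad-GFP cells.

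**Figure D3:**
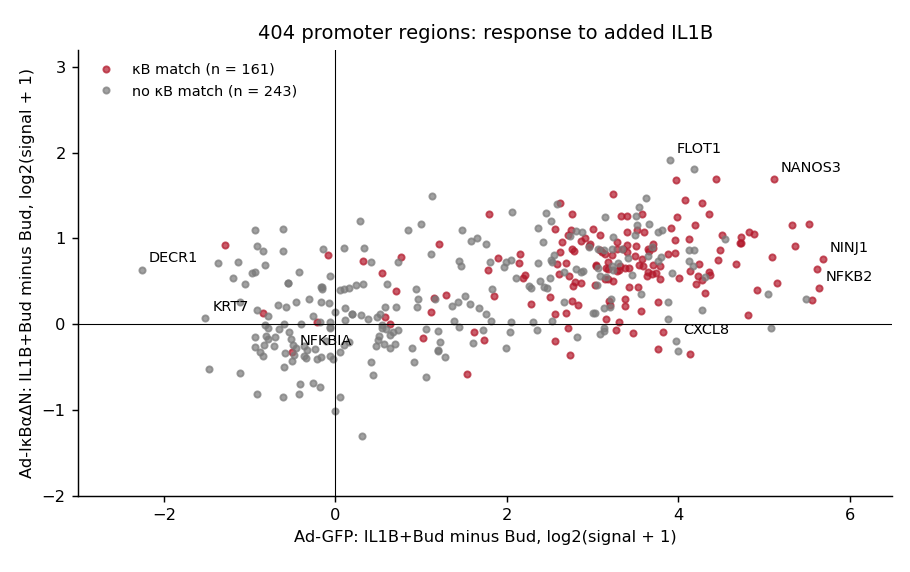
IL1B+Bud minus Bud GR signal at each of 404 promoter regions, on the log2(signal + 1) scale, in Ad-IκBαΔN cells (vertical axis) and Ad-GFP cells (horizontal axis); colours mark the 161 regions with a κB match and the 243 without. The median was 0.50 in Ad-IκBαΔN cells and 2.50 in Ad-GFP cells, and DECR1 had the lowest value in Ad-GFP cells at -2.26.

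Motif content went with the difference between IL1B+Bud and Bud. The motif search used no signal, but it was limited to the authors' set of GR regions. In Ad-GFP cells 93.7% of all regions in that set were at least 2-fold higher with IL1B+Bud than untreated. The part that the authors' choice of regions had in the split by motif was not tested. With a κB match, 150 of 161 promoter regions were higher and 1 lower in Ad-GFP cells, with median signals of 82.7 with IL1B+Bud and 7.28 with Bud and a median log2 difference of 3.31. Without one, 119 of 243 were higher and 9 lower, with medians of 53.3 and 26.9 and a difference of 0.94. With a GRE and no κB match, 4 of 21 were higher and 4 lower, with medians of 51.3 and 41.0 and a difference of -0.15. Regions with neither motif lay between, with 115 of 222 higher and a median difference of 1.12. In Ad-IκBαΔN cells, the regions with a κB match had median signals of 18.8 with IL1B+Bud and 11.0 with Bud, and 31 of 161 were higher. With Bud against untreated cells in Ad-GFP the order was the other way round. There, 20 of 21 regions with a GRE and no κB match were higher, with a median of 2.12, and 25 of 161 regions with a κB match were higher and 34 lower, with a median of -0.32. Other regions had 1199 of 1424 higher (median 2.09) with a GRE and no κB match, and 365 of 2129 higher and 425 lower (median -0.28) with a κB match. After re-centring, 7 of the 21 promoter regions were higher (median 0.72), and 7 of the 161 were higher and 121 lower (median -1.72). Other regions then had 556 of 1424 higher (median 0.68) with a GRE and no κB match. With a κB match, 95 of 2129 were higher and 1537 lower (median -1.69).

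Other regions showed the same order by motif, so the order was not one of promoters alone. With a κB match, 1968 of 2129 other regions were higher with IL1B+Bud in Ad-GFP cells, with a median of 3.07, and without one the median was 0.35. Promoter regions stood above other regions by 0.24 with a κB match and by 0.59 without one. Base composition moved with the difference too, though weakly. In Ad-GFP cells Spearman's rho of GC content with the difference was 0.15 across promoter regions and 0.046 across other regions. Promoter regions with a GC content of at least 55% had a median of 2.76 and other regions of that content 1.51, and below 45% the medians were 1.13 and 0.72. CpG-rich promoter regions had a median of 2.87 and the remaining ones 1.77. The part of base composition in the difference was not tested. By position the median was 2.46 upstream and 2.51 at or downstream of the start, and it was 2.74 within 250 bases and 2.03 farther out.

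**Figure D4:**
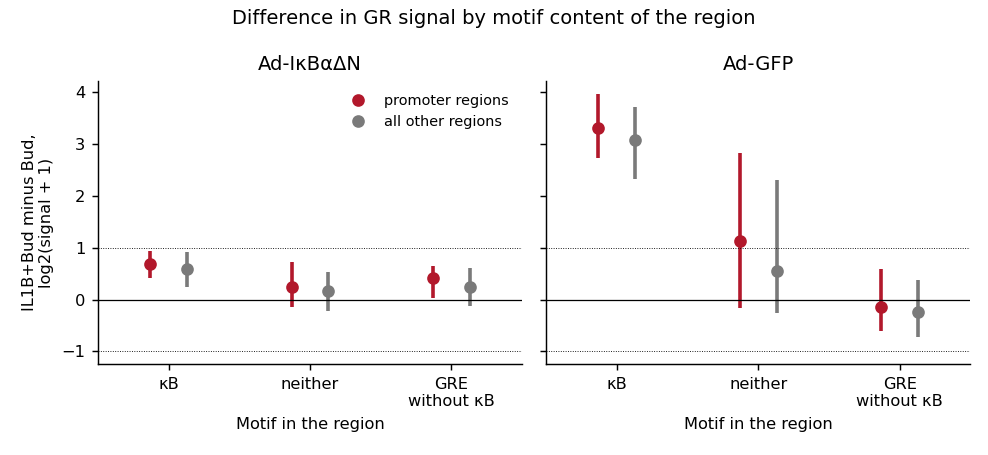
IL1B+Bud minus Bud GR signal, on the log2(signal + 1) scale, by motif content of the region in Ad-IκBαΔN cells (left) and Ad-GFP cells (right); points are medians over promoter regions and all other regions, lines span the quartiles across regions, and dotted lines mark a 2-fold difference. In Ad-GFP cells the promoter medians were 3.31 with a κB match, 1.12 with neither motif and -0.15 with a GRE and no κB match.

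At the genes of 4 NF-κB dimer subunits, GR signal was high with IL1B+Bud in Ad-GFP cells. At NFKB2 (chr10:102394295-102394694, 384 bases downstream of the start) the signal was 18.9 with IL1B+Bud, 13.8 with Bud and 7.45 untreated in Ad-IκBαΔN cells, and 582, 10.7 and 11.2 in Ad-GFP cells. The Ad-GFP value with IL1B+Bud thus stood apart from the other 5 groups, 49.8-fold above Bud as a ratio of signal + 1. NFKB1 (chr4:102501088-102501487, at the start) had 13.1, 9.10 and 7.87 in Ad-IκBαΔN cells and 208, 4.87 and 7.54 in Ad-GFP cells. REL had 28.8, 17.6 and 11.1 in Ad-IκBαΔN cells and 128, 14.7 and 14.2 in Ad-GFP cells. RELB had 19.7, 17.6 and 8.08 in Ad-IκBαΔN cells and 98.1, 7.36 and 16.6 in Ad-GFP cells. In all 4 genes the Ad-GFP cells with IL1B+Bud were the highest of the 6 groups, and the κB motif was matched in each region.

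Chemokine promoters followed the same pattern from different starting levels. CXCL8, the neutrophil attractant interleukin-8 (chr4:73740278-73740677), had 17.7 with IL1B+Bud, 20.5 with Bud and 6.85 untreated in Ad-IκBαΔN cells, and 387, 23.7 and 4.25 in Ad-GFP cells. In Ad-GFP cells, as ratios of signal + 1, Bud was already 4.70-fold above untreated and IL1B+Bud 15.7-fold above Bud. CXCL1, which holds the first κB match printed above at the midpoint of its region, had 20.6, 10.2 and 6.41 in Ad-IκBαΔN cells and 162, 5.11 and 10.8 in Ad-GFP cells. CXCL3 had log2 differences between IL1B+Bud and Bud of 0.70 in Ad-IκBαΔN cells and 4.24 in Ad-GFP cells, CXCL10 of 0.87 and 4.49, and CXCL5 of 0.96 and 3.29. CXCL2 differed less, with 0.21 and 1.36, and had a Bud signal of 45.7 in Ad-GFP cells, the highest of the 6 chemokine promoters. Dividing signals by their step turned the CXCL2 difference in Ad-GFP cells to -0.20.

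Of 51 genes on the list of NF-κB-dependent inflammatory genes, 23 had a promoter region, 25 regions in all. The list was chosen with earlier results of these data known. All 25 regions were higher with IL1B+Bud than with Bud in Ad-GFP cells, with a median log2 difference of 3.57, where 48.9% of all regions were higher. In Ad-IκBαΔN cells 3 were higher, with a median of 0.62, where 9.65% of all regions were higher. After division by the step, 0 were higher in Ad-IκBαΔN cells and 21 in Ad-GFP cells. ICAM1, an adhesion molecule for leukocytes, had 2 such regions. The one 155 bases upstream of its start had 9.38 with IL1B+Bud, 9.72 with Bud and 8.52 untreated in Ad-IκBαΔN cells, and 193, 4.72 and 6.91 in Ad-GFP cells. The one 725 bases downstream of it, in an intron, had 5.52, 5.27 and 7.66 in Ad-IκBαΔN cells and 53.3, 5.08 and 3.76 in Ad-GFP cells. Both ICAM1 regions were high in 1 group alone. EBI3, with both motifs, had 19.8, 9.24 and 7.40 in Ad-IκBαΔN cells and 387, 13.6 and 4.50 in Ad-GFP cells. Smaller differences in Ad-GFP cells were seen at CSF3, a granulocyte growth factor (1.03), SAA1, an acute phase protein (1.86), and PTGS2, cyclooxygenase-2 (2.28). The remaining members, at BCL3, CSF1, EFNA1, IL23A, IL32, PLAU, SDC4 and TAP1, lay between 2.70 at the second BCL3 region and 4.72 at SDC4. The CSF3 call rests on the scaling, with values of -0.012 after re-centring and -0.52 after division by the step.

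Feedback inhibitors of NF-κB and genes shared with the glucocorticoid pathway formed another list, also chosen with earlier results of these data known. Of 27 genes on that list, 10 had a promoter region, and 9 of the 10 regions were higher with IL1B+Bud than with Bud in Ad-GFP cells (median 3.59), against 2 in Ad-IκBαΔN cells (median 0.59), beside 48.9% and 9.65% of all regions. Re-centring, quantile normalization, division by the step and a pseudocount of 5 each left 0 higher in Ad-IκBαΔN cells. After division by the step the medians were 0.042 in Ad-IκBαΔN and 2.03 in Ad-GFP cells, where 9 regions were higher. TNFAIP3, which encodes the ubiquitin-editing enzyme A20, had 16.8 with IL1B+Bud, 10.7 with Bud and 6.88 untreated in Ad-IκBαΔN cells, and 153, 6.47 and 11.7 in Ad-GFP cells. TNIP1, its binding partner, had 16.8, 12.9 and 9.74 in Ad-IκBαΔN cells and 357, 9.81 and 7.59 in Ad-GFP cells. BIRC3, an inhibitor of apoptosis that is also on the glucocorticoid list, had 32.8, 42.5 and 8.26 in Ad-IκBαΔN cells and 324, 47.7 and 9.35 in Ad-GFP cells. IRAK3, an inhibitor of interleukin-1 receptor signalling, had 56.5, 37.6 and 8.91 in Ad-IκBαΔN cells and 358, 31.6 and 14.2 in Ad-GFP cells. BIRC3 and IRAK3 thus differed from TNFAIP3 and TNIP1 in having signal with Bud alone. The exception was NFKBIA, whose ratio of IL1B+Bud to Bud in Ad-GFP cells was 0.706 for signal + 1. The other 5, at CYLD, LCN2, NFKBIB, NFKBIZ and TIFA, had log2 differences from 3.08 at TIFA to 4.83 at NFKBIB in Ad-GFP cells and from 0.56 to 1.07 in Ad-IκBαΔN cells.

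The promoter regions with the highest differences in Ad-GFP cells for IL1B+Bud against Bud belonged in part to genes outside the lists. The highest was NINJ1, a membrane protein that ruptures the plasma membrane in dying cells, with 19.7 with IL1B+Bud, 11.2 with Bud and 10.2 untreated in Ad-IκBαΔN cells, and 284, 4.54 and 13.1 in Ad-GFP cells. IFNGR2, a subunit of the interferon-γ receptor, had 12.7, 7.75 and 7.00 in Ad-IκBαΔN cells and 155, 2.17 and 6.57 in Ad-GFP cells. SLC9A8, a sodium-proton exchanger, had 15.6, 12.6 and 11.6 in Ad-IκBαΔN cells and 340, 6.25 and 9.35 in Ad-GFP cells. All 3 were highest in Ad-GFP cells with IL1B+Bud and at or below 19.7 in the other 5 groups, and NINJ1 and IFNGR2 were at least 2-fold lower with Bud than untreated in Ad-GFP cells. STX11 (a syntaxin), the region shared by REPIN1 and ZNF775 (zinc finger genes), CTSS (cathepsin S), CCNL1 (cyclin L1), NANOS3 and the region shared by LACC1 and CCDC122 followed, with log2 differences from 5.09 to 5.52. STX11 had a Bud signal of 0.475 in Ad-GFP cells, the lowest of all promoter regions, and its fold depends on that value. Of the 12 highest, which include NFKB2, NFKB1 and ICAM1, 10 held a κB match and 2, at REPIN1/ZNF775 and the upstream ICAM1 region, did not match the searched letters.

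On the deposited scale few promoter regions were lower with IL1B+Bud than with Bud. The 10 in Ad-GFP cells became 83 after re-centring, 66 with quantile normalization and 112 after division by the step. Of all 10740 regions, 652 were lower as deposited, and 3443, 2888 and 4695 under these scalings in the same order. The lowest promoter region in Ad-GFP cells was DECR1, with 1001 with IL1B+Bud, 643 with Bud and 9.27 untreated in Ad-IκBαΔN cells, against 105, 507 and 8.43 in Ad-GFP cells. Signal with IL1B+Bud was thus below that with Bud in Ad-GFP cells and above it in Ad-IκBαΔN cells, and its 1001 was the highest value of any promoter region in the 6 groups. KRT7 had 162, 154 and 5.94 in Ad-IκBαΔN cells and 51.4, 150 and 10.1 in Ad-GFP cells. SLC19A2 had 396, 240 and 11.9 in Ad-IκBαΔN cells and 112, 291 and 7.05 in Ad-GFP cells. The regions at OPRL1/RGS19 and EXOC6 were also among the 6 lowest, with log2 differences of 0.93 and 0.54 in Ad-IκBαΔN cells and -1.29 and -1.20 in Ad-GFP cells. Of the 5 described, DECR1 held a GRE match and OPRL1/RGS19 a κB match.

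**Figure D5:**
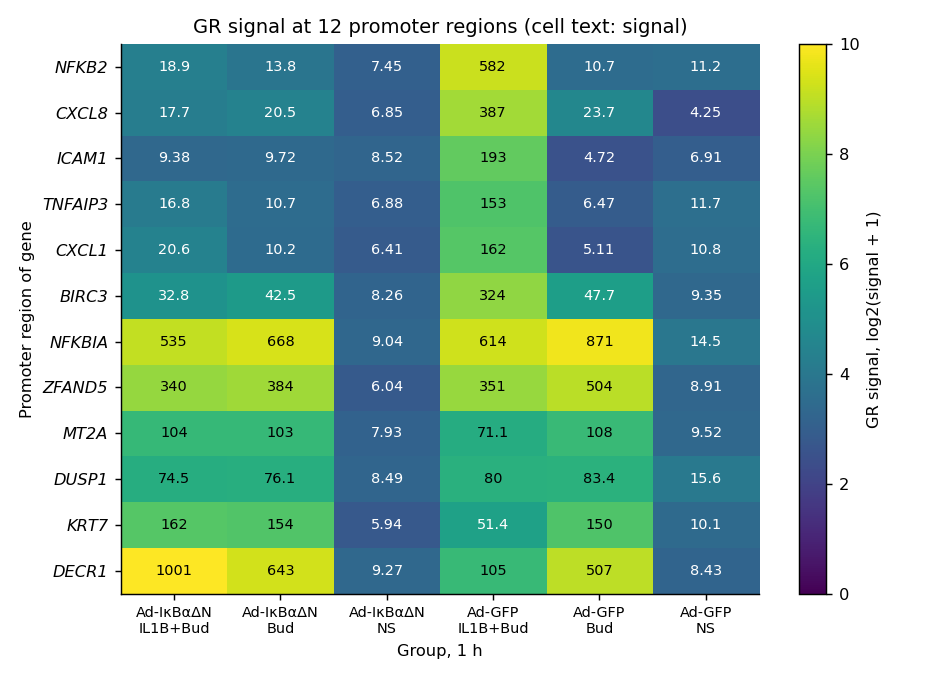
GR signal at the promoter regions of 12 genes in each of the 6 groups at 1 h; colour is log2(signal + 1) and the text in each cell is the signal. NFKB2, CXCL8, ICAM1, TNFAIP3, CXCL1 and BIRC3 were highest in Ad-GFP cells with IL1B+Bud, NFKBIA, ZFAND5, MT2A and DUSP1 were high in all 4 ligand-treated groups, and DECR1 was 1001 in Ad-IκBαΔN cells with IL1B+Bud and 105 in Ad-GFP cells with IL1B+Bud.

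Set against Ad-GFP directly, Ad-IκBαΔN cells had lower promoter signal with IL1B+Bud and similar signal with Bud. These differences share their groups with the comparisons above, and are given side by side with them. With IL1B+Bud, 245 of 404 promoter regions (60.6%) were lower and 17 (4.21%) higher in Ad-IκBαΔN than in Ad-GFP cells, where 46.5% of all regions were lower and 5.97% higher. The median log2 difference was -1.51 at promoter regions and -0.83 at other regions. After re-centring they were -0.59 and 0.10, with 143 promoter regions lower and 70 higher. Of all regions, 2619 were then lower and 2729 higher. The lowest promoter values, as deposited, were at NFKB2 (-4.87), REPIN1/ZNF775 (-4.63), CXCL8 (-4.37), SLC9A8 (-4.36), TNIP1 (-4.33), ICAM1 (-4.23), EBI3 (-4.22) and CTSS (-4.04). The highest were at DECR1 (3.24), OPRL1/RGS19 (2.11), CCN5 (1.86) and SLC19A2 (1.81). All 25 inflammatory promoter regions and 9 of the 10 feedback regions were lower, with medians of -2.58 and -2.53. Of the 12 glucocorticoid-induced regions, 2 were higher and 2 lower on the deposited scale, and 6 higher and 1 lower both after re-centring and after division by the step. With Bud alone, 24 promoter regions (5.94%) were higher and 0 lower, where 4.02% of all regions were higher and 0.0186% lower. The median was 0.19 at promoter regions and 0.02 at other regions. STX11 (2.27), CCDC3/OPTN (1.64) and SIRT2/NFKBIB (1.63) were the highest of these, from Ad-GFP signals of 0.475 to 5.34, and IL32 (-0.70), EBI3 (-0.51) and RASSF9 (-0.48) the lowest.

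In untreated cells, 14 promoter regions (3.47%) were higher and 22 (5.45%) lower in Ad-IκBαΔN than in Ad-GFP cells, where 7.21% of all regions stood higher and 2.77% lower. The median log2 difference was -0.20 at promoter regions and 0.05 at other regions. Quantile normalization gave 49 higher and 115 lower, and a pseudocount of 5 gave 0 and 5. Over all regions quantile normalization gave 2071 higher and 2114 lower, and a pseudocount of 5 gave 72 and 50. The untreated log2 signals of promoter regions had an SD across regions of 0.28 in Ad-IκBαΔN, the group with no step in its values, and 0.60 in Ad-GFP cells, and the part of this in the counts was not tested. PDCD5, a gene linked to apoptosis, had a signal of 9.29 in Ad-IκBαΔN and 32.6 in Ad-GFP cells, TRIP4/PCLAF 7.46 and 28.7, and TLCD1 7.58 and 26.6. TRAF3, which encodes an adaptor of NF-κB signalling, had 4.07 in Ad-IκBαΔN and 0.412 in Ad-GFP cells, NSUN4 6.46 and 1.08, and SYT8 7.71 and 1.69. At all 6 regions the signal of Ad-GFP cells with IL1B+Bud, 30.5 to 156, was above both untreated values.

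Compared with untreated cells, IL1B+Bud gave higher GR signal at most promoter regions in both viruses on the deposited scale, as at most regions of the authors' set. The part that the authors' choice of regions had in these shares was not tested. Signal was at least 2-fold higher at 304 of 404 promoter regions (75.2%) in Ad-IκBαΔN cells and at least 2-fold lower at 0. There 69.1% of all regions stood higher and 0.0466% lower. In Ad-GFP cells signal was higher at 395 (97.8%), where 93.7% of all regions were higher, and 0 were lower. Division by the step left 187 promoter regions higher in Ad-IκBαΔN and 233 in Ad-GFP cells. Re-centring left 68 higher and 30 lower in Ad-IκBαΔN cells and 103 higher and 36 lower in Ad-GFP cells. Over all regions, division by the step left 5042 higher in Ad-IκBαΔN and 5229 in Ad-GFP cells. Re-centring over all regions left 1789 higher and 1413 lower in Ad-IκBαΔN cells, and 2072 and 1559 in Ad-GFP cells. The median log2 difference was 1.45 at promoter regions and 1.48 at other regions in Ad-IκBαΔN cells, and 2.76 and 2.47 in Ad-GFP cells. The promoter regions of the inflammatory list had medians of 1.23 in Ad-IκBαΔN and 3.60 in Ad-GFP cells, and those of the glucocorticoid list 2.76 and 2.69.

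Some promoter regions were higher with IL1B+Bud than with Bud in Ad-IκBαΔN cells too. The highest was at FLOT1, which encodes a membrane microdomain protein, with 23.9 with IL1B+Bud, 5.61 with Bud and 7.91 untreated in Ad-IκBαΔN cells, and 76.9, 4.21 and 6.11 in Ad-GFP cells. GRAMD2B, NANOS3 and the region at INO80C followed, with log2 differences of 1.81, 1.69 and 1.69 in Ad-IκBαΔN cells and 4.18, 5.12 and 4.44 in Ad-GFP cells. At these 4 regions IL1B+Bud was at least 2-fold above Bud in both viruses, and it stood higher in Ad-GFP cells.

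Receptor genes and the remaining lists had few promoter regions. Of 44 receptor and growth factor genes 5 had one. IL1R1, the receptor through which interleukin-1β acts, had 86.9 with IL1B+Bud, 47.4 with Bud and 7.11 untreated in Ad-IκBαΔN cells, and 35.6, 54.9 and 5.64 in Ad-GFP cells. EGFR, the epidermal growth factor receptor, had 81.3, 68.0 and 8.55 in Ad-IκBαΔN cells and 60.5, 68.3 and 12.5 in Ad-GFP cells. Both thus had signal with Bud in either virus and no 2-fold difference with IL1B+Bud in Ad-GFP cells. F3, tissue factor, and IL6ST, the shared receptor subunit of the interleukin-6 family, had log2 differences of 3.29 and 1.20 in Ad-GFP cells for IL1B+Bud against Bud, and LIFR -0.62. BHLHE40 and EHF were the transcription factor genes with a promoter region, of 49, and KLF10 the only one of 24 AP-1 and immediate early genes. Their differences in Ad-GFP cells were 2.28, 2.56 and 3.24. None of 31 marker genes of other cell types had a promoter region.

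Promoter regions were also set beside the nearest other GR region. It lay a median of 37.0 kb away, and 227 promoter regions (56.2%) had one within 50 kb. The same share was not taken for other regions. In Ad-GFP cells these 227 had a median log2 difference between IL1B+Bud and Bud of 2.35 and their neighbours 2.11. Both were at least 2-fold higher in 107 pairs (47.1%), the promoter region alone in 42 and the neighbour alone in 27. Of all regions, 48.9% were higher, and the number of such pairs among unrelated regions was not worked out. Across the 227 pairs Pearson's r was 0.42 and Spearman's rho 0.43, as a description of pairs that share a locus and the libraries. In Ad-IκBαΔN cells both were higher in 3 pairs, the promoter region alone in 26 and the neighbour alone in 15, with a Pearson r of 0.15. There 9.65% of all regions were higher. For Bud against NS the medians of the same 227 pairs lay close together. Ad-GFP medians were 0.73 at promoter regions and 0.93 at neighbours, with a median paired difference of -0.13. The Ad-IκBαΔN medians were 1.08 and 1.11, with a median paired difference of 0.11. For Ad-GFP the promoter region alone was higher in 41 pairs and the neighbour alone in 46. For Ad-IκBαΔN these counts were 41 and 36.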

How the data were processed

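GR ChIP-seq was done in A549 cells, with 2 libraries in each of 6 groups per the labels. Libraries of RELA and of input were not used here. The authors' deposited table held log2 binding intensities, 1 per region and group, for 10740 regions of 400 bases, and log2 differences from NS; it writes Ad-IκBα for Ad-IκBαΔN. Named in the submitters' processing notes are Bowtie2 2.4.4, MACS2 2.2.7.1, DiffBind 3.2 and the build GRCh38 (hg38), beside FastQC 0.10.1, bcl2fastq and SAMtools. The sources used here do not give how libraries were combined and scaled, and depth is unknown. After 2 was raised to a value and 1 subtracted, the result times 400 fell on whole multiples (within 0.0001 steps) of 1 in Ad-GFP NS (all but 1 region), Ad-GFP Bud and Ad-IκBαΔN Bud, of 3 in Ad-GFP IL1B+Bud and of 1.5 in Ad-IκBαΔN IL1B+Bud. No step was found in Ad-IκBαΔN NS. The deposited values were thus taken to be log2(signal + 1), with signal a mean coverage.

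Promoter regions, gene lists, comparisons and the rule for named regions were chosen with earlier results of these data known. Named were the 12 highest and 6 lowest IL1B+Bud against Bud, the 10 highest Bud against NS and the 6 highest Bud signals in Ad-GFP, the 4 highest of both comparisons in Ad-IκBαΔN, the 8 lowest and 4 highest between viruses in IL1B+Bud, the 3 highest and 3 lowest in Bud and in NS, and listed genes. Those not described stand among the values given as ranges or are not reported here. Differences were described by a 2-fold threshold, medians and Wilson 95% intervals, and the counting was tested on simulated data. Sequences were read from hg38 with pysam 0.24.0, and the computation used Python 3.11.15, numpy 2.4.6 and pandas 2.3.3. No column of another sample was in the table.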

Additional observations from a re-analysis of the deposited data

Results flagged for a closer look

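At 17 promoter regions the 2 viruses moved in opposite directions under the same contrast, by at least 2-fold in one and at least 1.5-fold in the other. With 1 value per group, these differences between viruses were not tested. The same count was not taken over other regions, so 17 cannot be called many or few for promoters.

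For Bud against NS, 10 regions were higher in Ad-IκBαΔN cells and lower in Ad-GFP cells on the deposited scale. After re-centring all 10 were lower in both viruses, and with quantile normalization 4 of the 10 still had opposite signs. All 10 differences in Ad-IκBαΔN cells rest on its untreated group, which had no step in its values. Its log2 SD across promoter regions was 0.28, against 0.60 in untreated Ad-GFP cells, and the part of this was not tested. RELB, an NF-κB subunit gene, and ZFP36L2, which encodes an mRNA-destabilising protein, passed 2-fold in both, with log2 differences of 1.03 and 1.10 in Ad-IκBαΔN cells and -1.08 and -1.15 in Ad-GFP cells. TRIP4/PCLAF differed by 0.99 in Ad-IκBαΔN and -1.49 in Ad-GFP cells, CFB, a complement factor gene, by 0.87 and -1.14, and TFPI2, a serine protease inhibitor gene, by 0.79 and -1.25. TLCD1 (0.73 and -1.54), CASP10 (0.73 and -1.09), RPL23A (0.72 and -1.14), SIRT2/NFKBIB (0.71 and -1.29) and SLFN5 (0.67 and -1.19) completed them, with the value of Ad-IκBαΔN cells given first.

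For IL1B+Bud against Bud, 6 regions were higher in Ad-IκBαΔN cells and lower in Ad-GFP cells, and 1 went the other way. All 7 kept opposite signs after re-centring and with quantile normalization, and 6 after division by the step. DECR1 differed by 0.64 in Ad-IκBαΔN and -2.26 in Ad-GFP cells, SLC19A2 by 0.72 and -1.37, OPRL1/RGS19 by 0.93 and -1.29, and TPRG1 by 0.73 and -1.14. CCN5 differed by 1.10 in Ad-IκBαΔN and -0.94 in Ad-GFP cells, and CIART, a clock repressor gene, by 1.11 and -0.61. ITGB1, the β1 integrin gene, differed by -0.61 in Ad-IκBαΔN and 1.05 in Ad-GFP cells. It was the region that lost its opposite signs after division by the step. The highest Ad-GFP value of the 7, at ITGB1 as deposited, was only 0.013 after re-centring and 0.15 with quantile normalization. After division by the step it was -0.50.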

How the results depend on the processing

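Depth is unknown and each group has 1 value, so the limits are those of the authors' scale: a factor that differs between groups shifts every difference by nearly the same log2 amount, and with it every count past a threshold. No paired analysis was possible because the table gives 1 value per group and no value per library, and for the same reason no library could be left out in turn. In the 6 main comparisons, the promoter median minus that of other regions kept its sign under all 7 alternatives that recompute it. Of these, re-centring could not change it, and division by the step could change it only slightly, so their outcome was largely fixed in advance. Limited to 100 bases from the midpoint, the κB share was 36.9% and the GRE share 5.94%, inside the intervals reported. For promoter regions, the alternatives that moved a value are given next; the cause was not tested unless the setting itself (fewer regions, another threshold) is the cause.

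Re-centring to a common median gave, for Bud against NS, 15.3% higher and 26.0% lower in Ad-IκBαΔN and 16.8% higher and 49.0% lower in Ad-GFP. For IL1B+Bud against Bud it gave 8.17% higher in Ad-IκBαΔN and 55.2% higher and 20.5% lower in Ad-GFP. Between viruses with IL1B+Bud it gave 17.3% higher and 35.4% lower. Quantile normalization gave, in the same order, 19.3% and 21.5%, 13.6% and 36.6%, 1.49% higher, 43.8% and 16.3%, and 15.6% and 33.4%, with 0.248% higher between viruses with Bud. Its gaps to other regions were -0.10 for Bud in Ad-IκBαΔN, 0.14 for added IL1B in Ad-IκBαΔN, 0.97 for added IL1B in Ad-GFP and 0.060 between viruses with Bud. Division by the step gave, for added IL1B, 1.24% higher and 4.21% lower in Ad-IκBαΔN and 48.5% higher and 27.7% lower in Ad-GFP, and between viruses with IL1B+Bud 17.6% higher and 32.9% lower. A pseudocount of 5 gave 41.1% higher and 0% lower with Bud in Ad-IκBαΔN, 3.47% lower with Bud in Ad-GFP, 4.95% higher with added IL1B in Ad-IκBαΔN and 0.743% higher between viruses with Bud.

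Without the 25% of regions with the lowest mean, Bud gave 58.1% higher and 0% lower in Ad-IκBαΔN and 50.9% higher and 8.73% lower in Ad-GFP. Added IL1B then gave 11.4% higher in Ad-IκBαΔN and 59.6% in Ad-GFP, and the viruses differed by 54.8% lower with IL1B+Bud (gap -0.83) and 3.61% higher with Bud. A midpoint within 500 bases gave 72.3% higher with added IL1B in Ad-GFP and 65.3% lower between viruses with IL1B+Bud. Starts of any transcript made 987 promoter regions. Bud then gave 54.1% higher in Ad-IκBαΔN (gap -0.27) and 50.6% higher and 9.32% lower in Ad-GFP (gap -0.34). Added IL1B gave 10.9% higher in Ad-IκBαΔN (gap 0.10) and 57.3% in Ad-GFP (gap 0.88). Between viruses the values were 54.8% lower with IL1B+Bud (gap -0.40) and a gap of 0.080 with Bud. A 1.5-fold threshold gave 65.1% higher and 2.72% lower with Bud in Ad-IκBαΔN, and 48.5% and 23.8% in Ad-GFP. With added IL1B it gave 44.8% higher and 2.72% lower in Ad-IκBαΔN, and 71.0% and 9.41% in Ad-GFP. Between viruses it gave 8.17% higher and 69.6% lower with IL1B+Bud, and 25.5% higher with Bud.

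Of 844 values of named regions under the 4 scalings, 160 were past 2-fold either as deposited or under the scaling, but not in both. Another 17 changed sign from a 2-fold call and are given here. For Bud against NS in Ad-GFP, re-centring gave -0.34 at the downstream BCL3 region, -0.30 at IRAK3, -0.33 at LCN2, -0.055 at LIFR and -0.22 at TAP1. Quantile normalization gave -0.90 at that BCL3 region, -0.40 at DUSP1, -0.31 at FKBP5, -1.07 at IRAK3, -0.31 at LIFR and -0.40 at TIPARP. In Ad-GFP for IL1B+Bud against Bud, re-centring gave -0.012 at CSF3, and division by the step gave -0.27 at ARRDC2, -0.52 at CSF3, -0.20 at CXCL2, -0.078 at FKBP5 and -0.36 at IL6ST. For IL1B+Bud against NS in Ad-IκBαΔN, quantile normalization turned the gap to other regions to 0.072.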
